A study of Bos taurus with 10 samples.

Results

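The enzymes that build heme were examined in bovine oocytes before and after maturation in culture. They were taken as all probe sets whose single gene symbol was *ALAS1*, *ALAD*, *UROS*, *UROD*, *CPOX*, *PPOX* or *FECH*. All 7 genes had a probe set, and 10 of the 24016 probe sets tested belonged to them. These enzymes were chosen for description when the differences between the groups were already known. Their differences below are therefore descriptions and are not evidence for a change of the pathway. Where thresholds of the fit over all probe sets are named, they only place these enzymes among the rest of the array. The samples were 5 pools of immature oocytes (0 h) and 5 pools of oocytes matured in vitro for 24 h (IVM), each on its own Affymetrix bovine array. Oocytes came from follicles of 3 to 8 mm on ovaries of slaughtered cows. Immature oocytes were freed of cumulus cells at once, and IVM oocytes after culture as whole complexes in TCM-199 with 10% fetal calf serum and 10 ng/ml of epidermal growth factor. No genetic change was described for either group, and breed, age and the number of cows behind a pool were not given in the sources used here.

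Heme is an iron-porphyrin ring that serves as the redox or gas-binding group of cytochromes, catalase and globins. Its synthesis runs over 8 enzyme steps that begin in the mitochondrion, pass through the cytosol and end in the mitochondrion. ALAS1 makes aminolevulinate from glycine and succinyl-CoA and is the step usually held to limit the rate outside red cells. Among the cytosolic enzymes are ALAD, which joins aminolevulinate to porphobilinogen, UROS, which closes the ring, and UROD, which trims its side chains. The mitochondrial steps CPOX and PPOX oxidise the porphyrinogen, and FECH, an enzyme with an iron-sulfur cluster, inserts the iron. Every cell with a respiratory chain needs some heme, and red cell precursors make by far the most, with their own first enzyme, ALAS2.

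*ALAD*, the enzyme of the second step, stood out among these genes. On the immature arrays its log2 values (Bt.9585.1.S1_at) were 12.49, 12.45, 12.71, 12.32 and 12.49 for replicates 1 to 5. On the IVM arrays they were 6.03, 5.74, 5.96, 6.58 and 6.20. Every IVM array lay far below every immature array, and the gap between the nearest arrays of the groups was 5.75. The mean was 12.49 ± 0.14 (SD, n = 5) in immature and 6.10 ± 0.31 (SD, n = 5) in IVM oocytes. The log2 difference was -6.39 (standard error 0.15). The IVM values lay below the median of all probe sets, which was 7.04 to 7.10 on the 10 arrays, and no detection calls were used here, so that this difference gives no exact fold. Taken between arrays of the same replicate number, which the methods equate with a day of ovary collection, the difference ran from -6.75 to -5.75. In pools of oocytes, loss of a transcript from some of the oocytes and less transcript in each cannot be told apart. The labelling kit primed on the poly(A) tail, so less transcript and a shorter tail cannot be told apart either.

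The next 2 enzymes of the cytosol for which values varied, *UROS* and *UROD*, were also lower in IVM oocytes, by much less. *UROS* (Bt.12874.1.S1_at) had log2 values of 9.45, 9.28, 9.17, 9.73 and 9.84 in immature oocytes and of 8.04, 8.29, 7.90, 7.58 and 8.13 in IVM oocytes. The groups did not overlap. The means were 9.49 ± 0.28 (SD, n = 5) and 7.99 ± 0.27. The log2 difference was -1.51 (standard error 0.17), or 2.84-fold on the scale of the deposited values. *UROD* (Bt.26622.1.S1_a_at) had 9.09, 8.82, 9.14, 9.09 and 8.92 in immature oocytes and 7.14, 7.93, 8.11, 8.22 and 7.32 in IVM oocytes. All IVM arrays were again the lower ones, and they spread more (SD 0.49) than the immature arrays (SD 0.13), with IVM replicates 1 and 5 lowest. The difference of the means was -1.27 on the log2 scale (standard error 0.23).

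*CPOX* and *FECH*, mitochondrial enzymes of the late steps, had higher values in IVM oocytes. For *FECH* (Bt.15832.1.A1_at) the immature arrays gave 9.08, 8.81, 8.51, 8.90 and 9.09 and the IVM arrays 10.13, 9.82, 9.79, 9.54 and 10.18. All IVM values exceeded all immature values, with means of 8.88 ± 0.24 (SD, n = 5) and 9.89 ± 0.27. The log2 difference was 1.01 (standard error 0.16), or 2.02-fold on the scale of the deposited values. Centred on the poly-A controls, as described below, it was 0.08. For *CPOX* (Bt.26709.2.A1_at) the immature arrays gave 7.78, 7.69, 7.93, 7.35 and 7.80 and the IVM arrays 8.99, 8.40, 8.12, 8.13 and 8.36. The groups stayed apart by only 0.18, and IVM replicate 1 was the highest array. The difference of 0.69 (standard error 0.19) was the smallest among the varying probe sets of these enzymes.

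**Figure D1:**
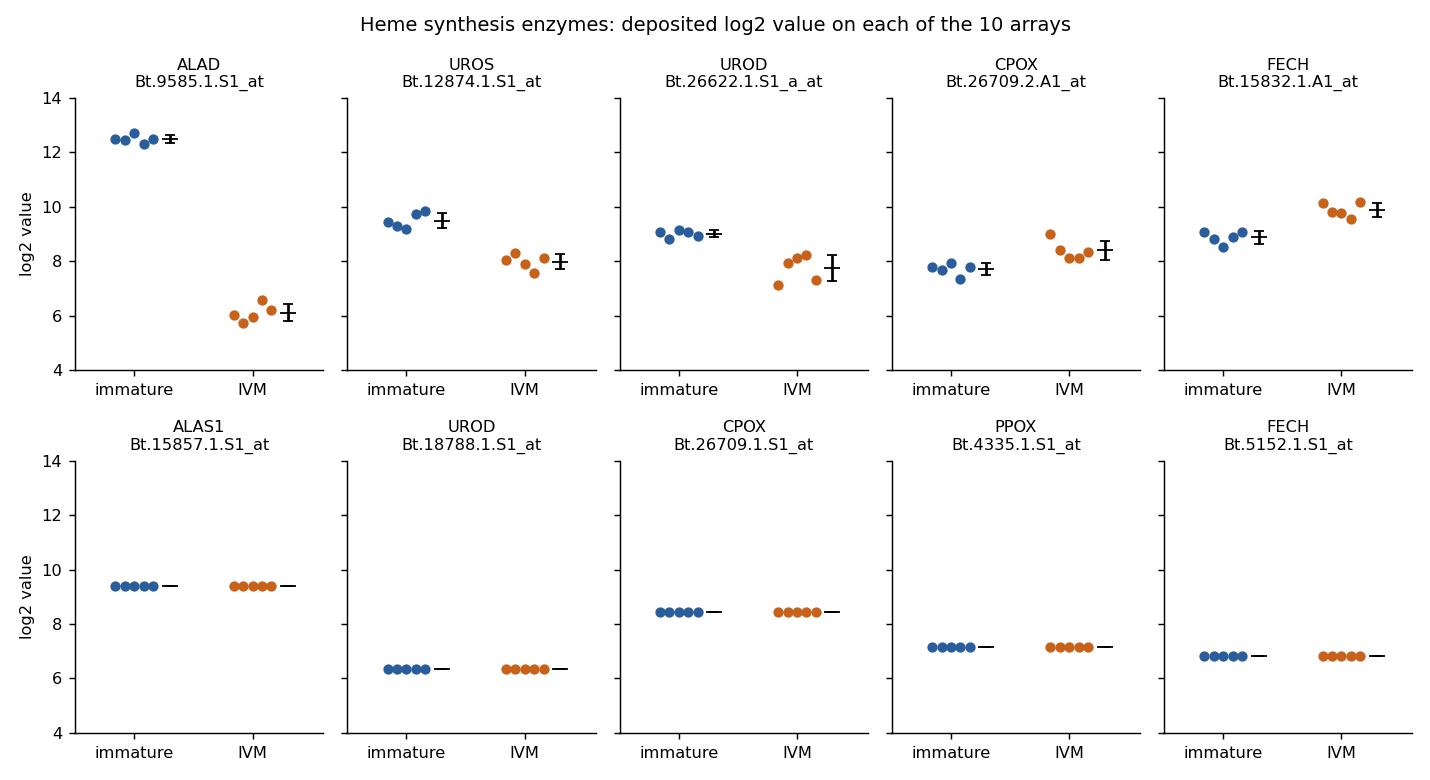
Log2 value (y axis) of each of the 10 probe sets on the 5 immature (blue) and 5 IVM (orange) arrays, in order of replicate number within a group, with mean and SD as a black bar. *ALAD*, *UROS* and *UROD* lie lower and *CPOX* and *FECH* higher on all IVM arrays in the upper row, and the 5 probe sets of the lower row show a single value on all arrays.

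The first enzyme, *ALAS1*, and *PPOX*, the oxidase before the last step, could not be compared, because their probe sets were flat. *ALAS1* (Bt.15857.1.S1_at) had a log2 value of 9.41 and *PPOX* (Bt.4335.1.S1_at) of 7.14 on each of the 10 arrays. FARMS, the method that summarised the probes, returns nearly the same value on every array where the probes of a set share no variation between arrays. Such a value gives no level and no change, and does not show that the gene is silent or stable. Second probe sets of *UROD* (Bt.18788.1.S1_at, 6.35), *CPOX* (Bt.26709.1.S1_at, 8.43) and *FECH* (Bt.5152.1.S1_at, 6.81) were flat as well. Each of these 3 genes therefore rests on 1 informative probe set of 2, and *ALAD* and *UROS* have a single probe set each. In all, 5 of the 10 probe sets varied by at least 0.01 between arrays, against 39.4% of all probe sets.

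By place in the cell, the 3 cytosolic enzymes measured were lower and the 2 mitochondrial enzymes measured were higher in IVM oocytes. The order from the lowest difference was *ALAD*, *UROS*, *UROD*, *CPOX* and *FECH*. The ranges of 1 standard error around the differences overlapped between *UROS* and *UROD* and between *CPOX* and *FECH*, so that neither order is firm. Between arrays of the same replicate number, *UROS* ran from -2.15 to -0.99, *UROD* from -1.95 to -0.87, *CPOX* from 0.18 to 1.21 and *FECH* from 0.64 to 1.27. As the groups did not overlap, any pairing of arrays gives the same direction. No test of this split by place was made, as it was seen in the same values that the genes were chosen on.

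**Figure D2:**
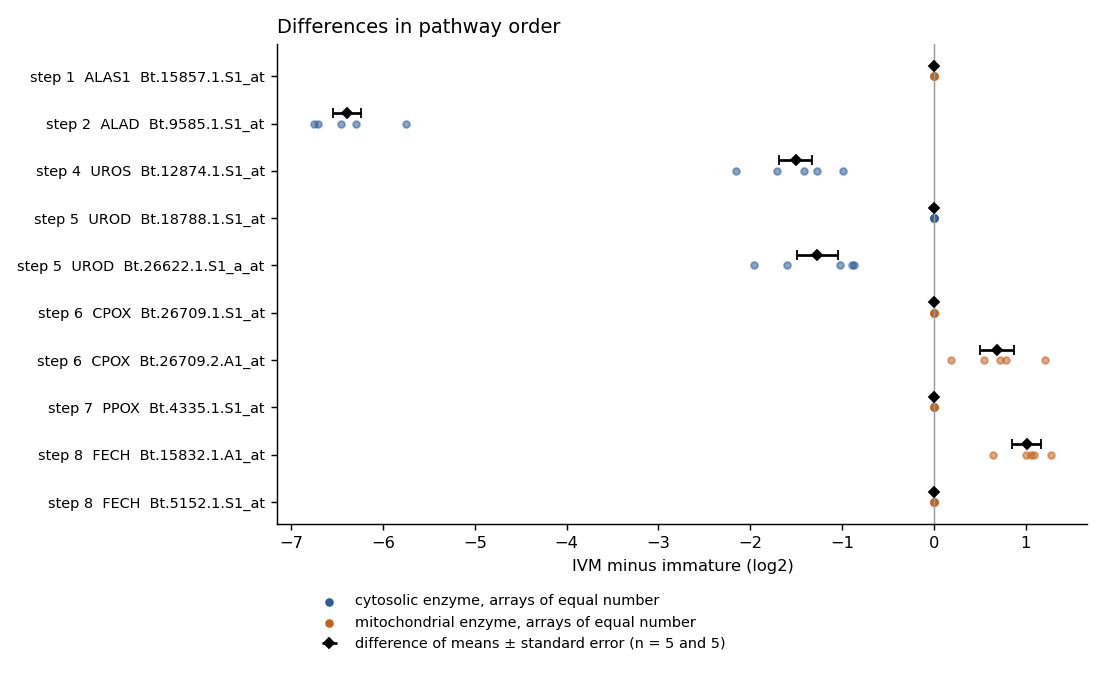
Log2 difference, IVM minus immature (x axis), of the 10 probe sets in pathway order (y axis), for arrays of equal replicate number as small points (blue for cytosolic, orange for mitochondrial enzymes), and as the difference of the means with its standard error in black (n = 5 and 5). Points of *ALAD* lie between -6.75 and -5.75, those of *UROS* and *UROD* between -2.15 and -0.87, and those of *CPOX* and *FECH* between 0.18 and 1.27.

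Against the whole array, the *ALAD* difference lay far from most others and the remaining enzymes did not. In the limma fit over all 24016 probe sets, the *ALAD* probe set was the 1 of 10 that passed the threshold (adjusted p under 0.0001) with a lower value, as 4.81% of all probe sets and 12.1% of the varying ones did. With a higher value 0 of the 10 passed, while 2 had an unadjusted p under 0.05, and 0.974% of all probe sets and 2.38% of the varying ones passed. When the threshold was loosened to 0.05, all 5 varying probe sets passed, 3 of them lower and 2 higher. That threshold was passed by 15.0% (lower) and 15.5% (higher) of all probe sets, and by 31.7% and 34.0% of the varying ones. Groups that did not overlap, as in these 5, were found for 56.3% of the 9460 varying probe sets, with the IVM arrays lower in 29.3% and higher in 27.0%. The median difference of the 5 was -1.27, against 0.18 over the 9460. With the collection day as a replicate block, 0 of the 10 passed (unadjusted p under 0.05 for 3 lower and 2 higher), as did 0.0% of all probe sets, and *CPOX* no longer passed the looser threshold. The methods dropped probe sets that FARMS called non-informative. Those calls were not used here, and the same number of most variable probe sets was taken in their place. In the fit restricted to these, *ALAD* and *UROS* passed (18.7% lower and 8.11% higher of those fitted), and with the block *ALAD* alone did (13.0% and 3.34%). With immature replicates 4 and 5 only, 0 of the 10 passed (unadjusted p under 0.05 for 3 lower and 2 higher), and 0.0167% of all probe sets did. The call of *ALAD* stayed without any 1 of the 10 arrays, with a difference from -6.51 to -6.30. With a gap of 5.75 between the groups this was to be foreseen, and it adds no support.

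**Figure D3:**
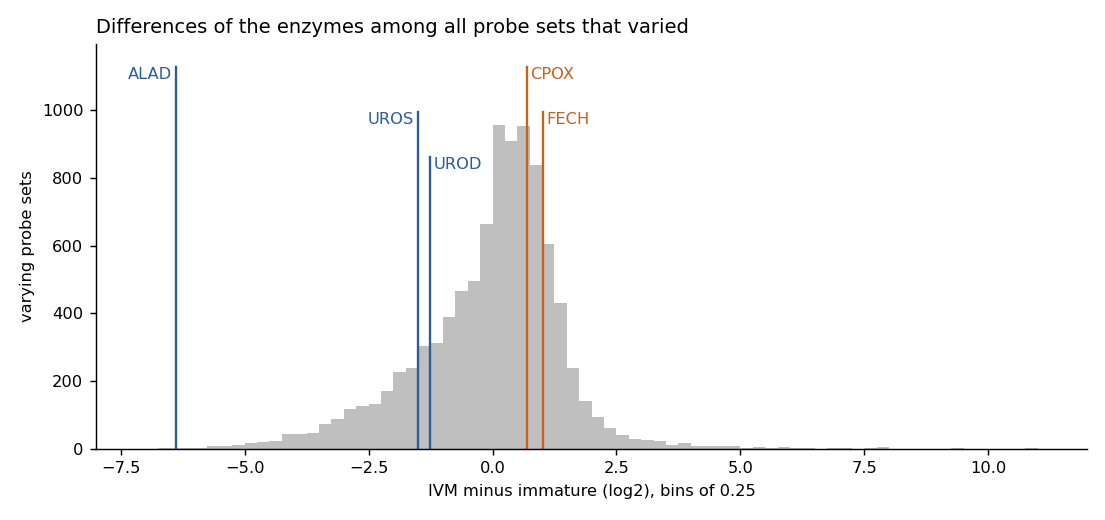
Histogram of the log2 differences, IVM minus immature (x axis, bins of 0.25), of the 9460 probe sets that varied (y axis, number of probe sets), with lines at the varying probe sets of cytosolic (blue) and mitochondrial (orange) heme enzymes. *ALAD* lies at -6.39 in the far lower tail, and the other 4 lie within the body of the distribution, from -1.51 to 1.01.

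Immature and IVM arrays also differed in control and marker transcripts. The poly-A controls, added to the RNA before amplification, were at 6.85 to 7.24 on the immature and 7.73 to 8.23 on the IVM arrays, a difference of 0.94, larger than that of *CPOX* and close to that of *FECH*. The hybridization controls ran from 9.38 to 10.85 and from 10.75 to 11.22, with immature replicates 1, 2 and 3 lowest. Against the IVM arrays, immature replicates 4 and 5 alone gave differences of -6.31 for *ALAD*, -1.79 for *UROS*, -1.26 for *UROD*, 0.82 for *CPOX* and 0.90 for *FECH*. When the arrays were centred on the poly-A controls, every difference became lower by the same 0.94. It was then -7.33 for *ALAD*, -2.44 for *UROS*, -2.20 for *UROD*, 0.08 for *FECH* and -0.25 for *CPOX*, whose direction thus turned. With that centring 8 of the 10 passed with a lower value, flat ones included, as did 77.7% of all probe sets. The part of these controls in the differences was not tested.

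Markers of the oocyte were clearly measured, and those of red cells were not. All 10 oocyte markers found varied, among them *ZP2* and *ZP4*, proteins of the zona pellucida, and *KPNA7*, an importin of the egg. Their mean log2 value was 12.28 to 12.76 on the immature and 9.74 to 11.08 on the IVM arrays. Of the 10, 7 had a difference below and 3 above 0, with a median of -1.90. Past the threshold 3 fell and 0 rose, beside 15.7% and 2.32% of all varying genes. The 3 were *GTSF1* (-4.87), *NLRP5* (-4.03) and *ZP3* (-3.78). Of 11 red cell markers, 10 were flat, including *ALAS2*, the hemoglobin genes *HBA* and *HBB*, *AHSP*, which binds free alpha globin, and *EPB42*, a protein of the red cell membrane. The other was *TFRC*, the transferrin receptor, which many cells use to take up iron. Of 19 cumulus and granulosa cell markers, 15 varied. Their mean ran from 7.32 to 9.70 on the immature arrays and from 8.79 to 11.24 on the IVM arrays, and *FOXL2*, *CD44*, *KRT8* and *COL1A2* were flat. Of the 15, 8 had a difference below and 7 above 0. Past the threshold 1 rose and 0 fell, beside 2.32% and 15.7% of all varying genes. The 1 was *TNFAIP6*, from 3.94 ± 1.15 (SD, n = 5) to 14.79 ± 1.93 (adjusted p = 7.63e-05 from limma). A second varying probe set of *TNFAIP6* had a difference of 2.71. *PTX3* went from 4.90 ± 0.22 to 11.28 ± 1.80. *VIM* (12.31 ± 2.02 and 9.79 ± 1.38, SD, n = 5) and *SERPINE2* (11.80 ± 1.16 and 11.94 ± 1.19) were high in both groups. *VCAN*, a proteoglycan of the expanded cumulus, was at 8.74 ± 1.52 and 12.70 ± 1.40. The part of follicular cells in the heme enzyme values was not tested.

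Around the pathway, 121 other genes of heme and iron metabolism were looked up in 8 lists, and 65 of the 90 on the array varied. Of these 65, 7 fell and 1 rose past the threshold in limma, and 57 did not pass. Among all genes on the array, 8.83% were lower and 1.33% higher, and among the 5121 that varied 15.7% and 2.32%. The median difference of the 65 was 0.03, beside 0.00 for all varying genes. With the collection day as a replicate block none of the 8 passed over all probe sets, with adjusted p in limma from 4.13e-04 to 0.00594 (28 of the 65 lower and 17 higher had an unadjusted p under 0.05). Restricted to the most variable probe sets, the blocked fit passed 7 lower and 2 higher genes, beside 13.0% and 3.34% of the probe sets fitted.

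The list of heme and porphyrin transport, which also takes in carriers of iron and folate, held 3 of the 7 genes that fell. *ABCG2*, a pump of the cell membrane that exports porphyrins among many other substrates, was at 10.25 to 10.62 on the immature and 6.89 to 7.23 on the IVM arrays. With no overlap between the groups it fell by 3.39 log2 units (standard error 0.09), at an adjusted p in limma of 9.37e-08. *SLC25A28*, a mitoferrin that brings iron into mitochondria, fell by 1.80 (standard error 0.17, adjusted p = 8.30e-05), and its call was lost when any 1 of the 10 arrays was left out (adjusted p from 1.33e-04 to 4.76e-04). The third was *SLC46A1*, a folate transporter first described as a heme carrier (-1.49, adjusted p = 8.95e-06 from limma), named here after its value was seen. Of the 9 genes of this list that varied, 3 passed as lower, beside 15.7% of all varying genes. The other 6 did not pass, and the median difference of the 9 was -0.02.

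Of the varying genes, 1 of 16 of heme insertion and heme proteins and 2 of 13 of iron-sulfur cluster assembly passed as lower. Among all varying genes 15.7% did. *CYB5A*, the heme protein cytochrome b5, fell by 3.87 (standard error 0.19, adjusted p = 2.37e-06 from limma), from 9.93 ± 0.19 (SD, n = 5) to 6.07 ± 0.39. The other 15 varying genes of heme insertion and heme proteins did not pass, and the list was evenly split, with 8 differences below and 8 above 0 (median -0.01). *NUBP1* and *MMS19*, which act in the cytosolic assembly of iron-sulfur clusters, fell by 3.13 (standard error 0.16, adjusted p = 2.39e-06 from limma) and fell by 3.04 (standard error 0.11, adjusted p = 4.29e-07), respectively. A second varying probe set of *MMS19* had a difference of -0.28. Of the 13 varying genes of this list, 11 had a negative difference, and the median was -0.98. At the looser threshold of 0.05 all 11 passed as lower and none as higher, which 38.0% and 29.8% of all varying genes did. With the replicate block 3 of the 11 lost this call, with adjusted p in limma of 0.0606 for *NFS1*, 0.0857 for *GLRX5* and 0.0583 for *FDX2*, all factors of mitochondrial cluster assembly.

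Of the varying genes of iron handling, 1 of 10 passed as lower and 0 as higher. Of those of heme sensing, 0 of 4 passed as lower and 1 as higher, and of heme breakdown none of 4 passed. Among all varying genes 15.7% passed as lower and 2.32% as higher, so such counts do not set lists this short apart. *ACO1*, an aconitase that turns into an iron-responsive RNA-binding protein when it loses its iron-sulfur cluster, fell by 1.50 (standard error 0.09, adjusted p = 5.28e-06 from limma). The other 9 varying genes of iron uptake and storage did not pass, among them *FTH1*, the ferritin heavy chain, at 12.19 ± 0.18 (SD, n = 5) and 12.29 ± 0.21, and *TFRC*, at 7.52 ± 0.11 and 7.93 ± 0.26. *KEAP1*, which holds the antioxidant factor NRF2 in check, rose by 1.88 (standard error 0.14, adjusted p = 2.41e-05 from limma). Its call was lost without immature replicate 1, 2, 3 or 5 or IVM replicate 2, 3 or 5 (adjusted p from 1.01e-04 to 1.70e-04). Centred on the poly-A controls, the difference of *KEAP1* was 0.95, that of *ACO1* was -2.43 and that of *SLC25A28* was -2.73. The other 3 sensing genes that varied, *EIF2AK1* (0.53), *NFE2L2* (0.21) and *MAFG* (0.37), did not pass. The same centring, which lowered every difference by 0.94, turned all 3 negative. Of the 4 breakdown genes that varied none passed (unadjusted p under 0.05 for 1 lower and 1 higher gene). *HMOX1*, the inducible heme oxygenase, was at 8.20 ± 0.62 and 6.97 ± 0.21 (SD, n = 5, difference -1.24, adjusted p = 0.0123), and *HMOX2*, the constitutive one, was flat at 7.23. Of the 9 varying genes of substrate supply and *ALAS1* control none passed either (unadjusted p under 0.05 for 3 lower and 3 higher genes), with a median of 0.15.

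**Figure D4:**
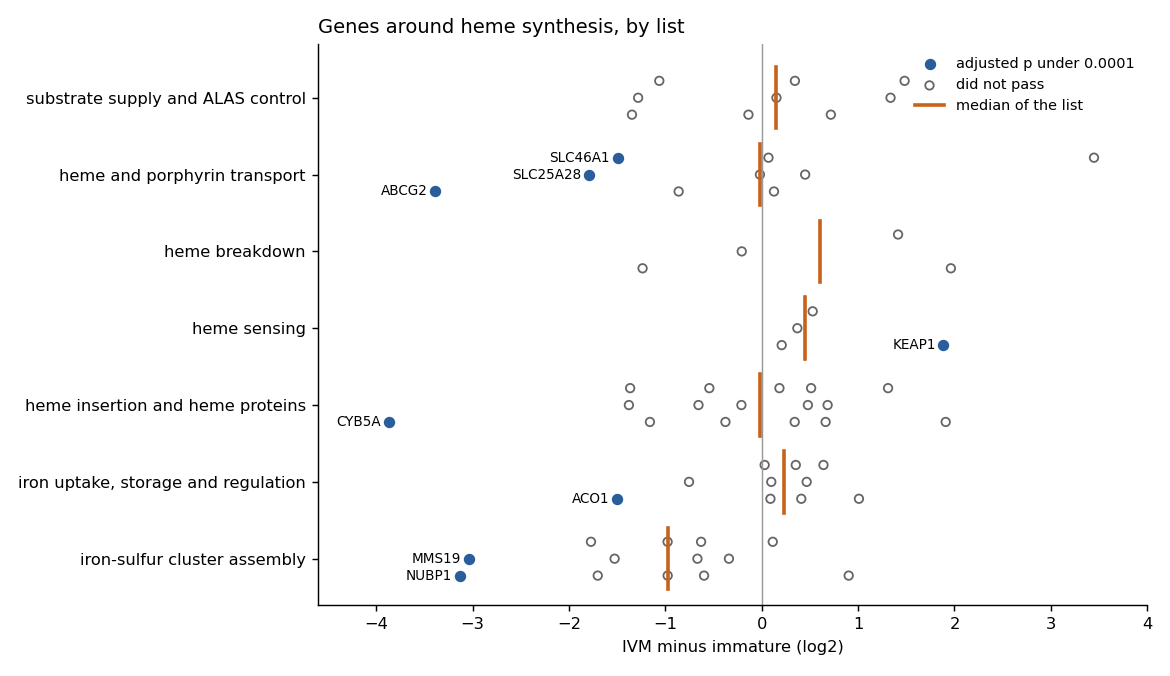
Log2 difference, IVM minus immature (x axis), of each varying gene of the 7 lists with such genes (y axis), filled where the adjusted p from limma was under 0.0001 and open otherwise, with the median of each list as an orange bar. The named points are the 7 genes that fell, from *CYB5A* at -3.87 to *SLC46A1* at -1.49, and *KEAP1* at 1.88.

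The genes whose profile over the 10 arrays was nearest to that of *ALAD*, by the root mean square difference of centred log2 values, were *POLR1E* (0.36), *PUM3* (0.36) and *PDE6C* (0.37). *POLR1E*, a subunit of RNA polymerase I, went from 12.80 ± 0.13 (SD, n = 5) to 6.92 ± 0.10. *PUM3*, a nucleolar RNA-binding protein, went from 12.48 ± 0.12 to 6.48 ± 0.50. *PDE6C*, known as a phosphodiesterase of cone cells, went from 12.08 ± 0.28 to 5.54 ± 0.29. Pearson's r with *ALAD* was 0.997, 0.995 and 0.994 over the 10 arrays, which fall into 2 groups, so that these values mostly restate the difference between immature and IVM oocytes.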

How the data were processed

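Expression was measured in 5 immature and 5 IVM pools on 10 Affymetrix bovine arrays. From 100 ng of total RNA, labelled RNA was made by 2 rounds of amplification with a kit that primes on the poly(A) tail, so values refer to polyadenylated RNA. GCOS read the scans, and the authors then ran quantile normalization and FARMS, which gave the deposited log2 value of each probe set. FARMS makes a probe set flat where its probes share no variation between the arrays. All value columns were used. Precision is limited by having 5 arrays a group.

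The 112 control probe sets were set apart. Symbols came from the platform's annotation, updated through gene identifiers of RefSeq (assembly ARS-UCD2.0). Of 24016 probe sets, 13292 had 1 symbol, 86 had several and 10638 were unnamed here. Sequences and coordinates were not used here. The groups were compared by limma 3.58.1 (lmFit, eBayes; R 4.3.3) over the 24016 probe sets, with Benjamini-Hochberg adjustment. As threshold the adjusted p had to be under 0.0001. The methods set this rate for a SAM test, which was not run. With 14556 flat probe sets in the fit, its prior came to 0.103 degrees of freedom. The fit was tested on simulated data.

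The members, lists and tests were chosen with earlier results of these data known. For a list gene, the probe set with the highest mean over the 10 arrays was used. Genes named are all members, up to 2 genes per list and direction with the largest called change, *ALAS2*, *HMOX1*, *HMOX2*, *TFRC* and *FTH1*, the 3 markers per cell type with the highest mean, and the 3 genes nearest to a called member. Other genes were named after their values were seen. The methods state that replicates are days of collection, so equal numbers were taken as 1 day. To check this, deviations from the group means were correlated over probe sets between arrays of 1 number, and r was 0.15, -0.34, 0.08, 0.68 and 0.35 in order of number, which does not show a shared day for every number. Alternatives were the most variable probe sets (a stand-in for the informative calls of FARMS that the methods used) or the 9460 varying probe sets, the replicate block, a looser threshold, another prior, a filter on low values, other normalizations, subsets of arrays, each array left out and another probe set per gene. Python 3.11.15 with pandas 2.3.3 and matplotlib 3.10.9 served for tables and plots.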

Additional observations from a re-analysis of the deposited data

Results flagged for a closer look

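Varying members, and list genes and markers named by the fixed rule, were checked for an array far from the other 4 of its group. Among 42 groups of 5 arrays, 1 held such an array, where chance gives about 1 group in 20. *ACO1* on IVM replicate 4 had a log2 value of 7.93, while the other IVM arrays lay between 7.52 and 7.62. All 5 IVM arrays stayed below the immature arrays.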

How the results depend on the processing

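The threshold passed 1 lower and 0 higher of the 10 heme enzyme probe sets, and 7 lower and 1 higher of the pathway genes. Restricted to the most variable probe sets, or to those that span at least 0.01, the fit passed 2 lower enzyme probe sets, and 9 lower and 3 higher pathway genes. Of the most variable probe sets, 18.7% passed as lower and 8.11% as higher. The replicate block over all probe sets left 0 of each, as did immature replicates 4 and 5 alone against IVM. The replicate block over the most variable probe sets passed 1 lower enzyme probe set, and 7 lower and 2 higher pathway genes. Of all those fitted, 13.0% passed as lower and 3.34% as higher. At 0.05 the counts were 3 and 2 for the enzymes, beside 31.7% and 34.0% of all varying probe sets. For the pathway they were 27 and 13 of the 65 varying genes, beside 38.0% and 29.8% of all varying genes. Centring on the poly-A controls moved all flat probe sets below 0 by construction and gave 8 and 0, and 58 and 2. Of all probe sets, 77.7% then passed as lower and 0.687% as higher. Without 1 array the enzyme counts stayed 1 and 0, and the pathway counts ran from 6 to 7 lower and from 0 to 2 higher. The 1 enzyme was *ALAD*, and its gap of 5.75 between the groups made this foreseeable. Shares over all probe sets are not given for these fits, nor for the fit on those that span at least 0.01. Over all probe sets the block ended the calls of *ALAD*, of all 8 pathway genes and of *POLR1E*, *PUM3*, *PDE6C* and *TNFAIP6*. The block also ended those of *GTSF1*, *NLRP5* and *ZP3*. It changed no other call of a named gene at that threshold. Over the most variable probe sets *ZP4* passed with and without the block. Poly-A centring lowered every difference by 0.94, and so turned each direction with a smaller rise. Among members and genes named by the fixed rule, these were *CPOX* (-0.25), *FTH1* (-0.84), *KPNA7* (-0.56), *SERPINE2* (-0.79) and *TFRC* (-0.52). *EIF2AK1*, *NFE2L2* and *MAFG*, named after their values were seen, turned as well. With immature replicates 4 and 5 alone the direction turned for *SERPINE2* (-0.40). Without 1 array *SERPINE2* ran from -0.32 to 0.50. For these the cause was not tested. Whole groups of arrays differ in added controls, each group has 5 arrays, and 5 of the 10 enzyme probe sets are flat.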
